A study of Homo sapiens with 31 samples.

Results

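The thymosins TMSB4X, TMSB10 and TMSB15A, the transgelins TAGLN and TAGLN2, the calponins CNN1, CNN2 and CNN3, the smooth muscle actin ACTA2 and the tropomyosin TPM2 are 10 of the 19221 genes used from an RNA-seq table of 31 libraries. They were chosen by name from their FPKM in these same libraries, with earlier results known, and all 10 were found. Their levels and differences are therefore given as a description, with no test. FPKM divides the fragments of a gene by gene length and library total, so that levels may be set side by side between genes on this scale.

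The study worked in cell lines used as models of ovarian cancer. It set a knockdown of the transcription factor C/EBPβ and a selected resistance to the PARP inhibitor olaparib against their own controls. Its authors write that the use of C13* is open to some question given its origin. They add that A2780 was reported as an unlikely line of high-grade serous ovarian cancer. C13* shCON (n = 7) were C13* cells, a cisplatin-resistant line, with lentivirus carrying a control shRNA. C13* shCEBPB (n = 8) were C13* cells with lentivirus carrying an shRNA against CEBPB, the gene of C/EBPβ. A2780 (n = 8) was the untreated parent line, and A2780 OlaR (n = 8) was derived from it by long exposure to rising olaparib. The methods speak of resistant clones, but the sources used here do not say how many the A2780 OlaR libraries came from, nor whether the shRNA cells were clones. The libraries of a group are called biological replicates by the study, and the tests below measure the spread between them. The comparison of A2780 OlaR with A2780 and that of C13* shCEBPB with C13* shCON share no library.

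Actin cycles between single subunits and filaments. Thymosins are small proteins that hold single actin subunits in a pool, whereas transgelins, calponins and tropomyosins lie along filaments and steady them or tune their contact with myosin. ACTA2, TAGLN and CNN1 are best known from smooth muscle and from myofibroblasts, and many genes of this kind are switched on by serum response factor (SRF) with myocardin family cofactors at a sequence called the CArG box. TAGLN2, CNN2 and CNN3 are the forms found in many other cells.

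The coding sequences of the thymosins are shown because the reads of such short and similar genes have to be told apart. They were read from the GENCODE 44 transcripts on hg38, 5′ to 3′ and without the stop codon. TMSB4X lies at chrX:12975110-12977227 on the plus strand, TMSB10 at chr2:84905656-84906671 on the plus strand and TMSB15A at chrX:102513682-102516739 on the minus strand. Capitals mark the bases that differ from TMSB4X, or have no partner in it, in a global alignment.
TMSB4X: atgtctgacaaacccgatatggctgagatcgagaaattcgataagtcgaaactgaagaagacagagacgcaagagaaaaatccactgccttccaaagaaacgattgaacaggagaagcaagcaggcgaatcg
TMSB10: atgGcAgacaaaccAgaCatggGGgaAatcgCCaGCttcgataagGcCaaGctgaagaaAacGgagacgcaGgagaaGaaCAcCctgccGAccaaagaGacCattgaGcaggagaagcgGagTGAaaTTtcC
TMSB15A: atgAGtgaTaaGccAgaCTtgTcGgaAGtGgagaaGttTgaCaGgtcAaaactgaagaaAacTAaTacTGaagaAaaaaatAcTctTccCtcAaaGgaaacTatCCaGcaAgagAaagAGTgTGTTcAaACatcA

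Bases identical to TMSB4X in the alignment made up 75.0% of the coding sequence of TMSB10 and 65.2% of that of TMSB15A, which is the longer of its pair. TMSB15A and its neighbour in the family TMSB15B had 133 of 135 coding bases in common (98.5%), so the split of reads between these is uncertain. GENCODE 44 also lists 6 pseudogenes named after TMSB4X, 11 after CNN2 and 2 after TMSB10, none of which is in the table.

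Promoters, from 250 bases before to 50 bases after the start, were taken from RefSeq (GRCh38.p14) for 9 of the 10 genes, with 14 promoters in all. A CArG box was sought on both strands as an exact CCWWWWWWGG, where W is A or T. Near matches, such as ccctatatgg in a promoter of ACTA2, were not counted. TAGLN, the gene without a promoter in this source, was not searched. The exact box was found in 1 of the 9 genes, CNN2, and in 1.60% of the 27305 genes with a promoter in this source (1.29% of its 35116 promoters). The stretch that holds it is shown since CNN2 was the 1 gene of the 10 that was higher in A2780 OlaR and lower in C13* shCEBPB than in its control without overlap of libraries in either comparison. It lies at chr19:1026494-1026553 on the plus strand, and capitals mark the CArG box, whose first base is 89 bases before the start.
CNN2: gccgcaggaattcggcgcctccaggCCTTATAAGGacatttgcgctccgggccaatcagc
The letters GGAATG, which TEAD factors bind, were found on 1 of the strands in ACTA2 and in CNN3, and in 16.7% of the 27305 genes. The letters TTGCNNAA, of the kind that C/EBP factors bind, were in 0 of the 9 genes and in 12.7% of the 27305. The letters TATAAA were also in 0 of the 9 and in 14.0% of the 27305. A match or its absence in these windows is a description of letters and not of binding.

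Before the results, the libraries were checked against their labels. FPKM summed to between 417556 and 454578 per library. Values under 0.1 FPKM rose in steps of whole reads (within 0.05 of a whole step for 94.6% of 9584 such values), and these steps put the deepest library at 1.42 times the shallowest, while absolute depth is unknown. CEBPB was at 75.2, 85.4 and 101 FPKM (lowest, median, highest) in C13* shCON and at 30.2, 49.5 and 58.7 in C13* shCEBPB, with no overlap. CEBPB was at 85.6, 99.7 and 111 FPKM in A2780 and at 97.1, 113 and 127 in A2780 OlaR, with overlapping libraries. The paper reports a pronounced rise of C/EBPβ in A2780 OlaR, by western blot and by quantified CEBPB mRNA. The exon of CEBPB shares 231 bases with an antisense gene. Whether strand was used in counting is not given in the sources used here. C13* shCON replicate 1 carries A2780 as cell line in 1 field and was kept by its title. Across the 12967 genes with at least 1 FPKM in 7 or more libraries, the group means of log2(FPKM + 1) of A2780 OlaR had a Pearson r of 0.993 with those of C13* shCON, 0.791 with C13* shCEBPB and 0.709 with A2780. C13* shCON and C13* shCEBPB were at r = 0.791. There were 154 genes under 0.1 FPKM in every library of A2780 or of A2780 OlaR and at 10 or more in every library of the other, 111 such genes between C13* shCEBPB and C13* shCON, and 0 between A2780 OlaR and C13* shCON. The groups are called by their labels here, and in both comparisons the named treatment and any other difference between the cells of the 2 groups cannot be told apart.

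The libraries came from cultured cell lines and not from tissue, and markers of several cell types also differed between the groups. Of 10 fibroblast markers, 7 had a median of at least 1 FPKM in A2780, 1 in A2780 OlaR, 1 in C13* shCON and 2 in C13* shCEBPB. Their summed level was 359 to 415 FPKM in A2780, mostly from the collagen gene COL3A1 (median 364), against 3.71 to 5.16 in A2780 OlaR, 3.35 to 4.10 in C13* shCON and 15.5 to 23.3 in C13* shCEBPB. Of 6 epithelial markers, 6 had a median of at least 1 FPKM in A2780 OlaR and in C13* shCON, 3 in A2780 and 2 in C13* shCEBPB. Their summed level was 85.7 to 94.0 FPKM in A2780, 2536 to 3048 in A2780 OlaR, 2318 to 2563 in C13* shCON and 1263 to 1514 in C13* shCEBPB. A2780, labelled as an ovarian adenocarcinoma, had medians of 81.3 FPKM of KRT18, 5.87 of KRT8 and 1.17 of EPCAM, while KRT19 (0.139), CDH1 (0.0177) and PAX8 (0.590) were under 1 FPKM. In C13* shCEBPB, KRT19, CDH1, EPCAM and PAX8 were under 1 FPKM by median (0.0165, 0.677, 0.562 and 0.529), against 1442, 81.0, 110 and 6.20 in C13* shCON. KRT8 and KRT18 went the other way, with medians of 889 and 525 FPKM in C13* shCEBPB and 461 and 318 in C13* shCON. Of 6 smooth muscle markers, 4 had a median of at least 1 FPKM in A2780, 1 in A2780 OlaR, 1 in C13* shCON and 2 in C13* shCEBPB. They summed to 27.3 to 30.6 FPKM in A2780, 16.0 to 20.0 in A2780 OlaR, 24.0 to 27.7 in C13* shCON and 7.40 to 11.3 in C13* shCEBPB. Outside A2780 most of this sum was SMTN (medians 16.7, 24.8 and 7.37 FPKM in A2780 OlaR, C13* shCON and C13* shCEBPB), whereas ACTG2, LMOD1 and SYNPO2 had medians of 3.90, 2.61 and 9.47 FPKM in A2780 and of 0.492 or less elsewhere. The defining markers MYH11 and DES had medians of 1.19 FPKM or less in every group. PTPRC, which marks leukocytes, had a median of 83.5 FPKM in A2780 and was listed at 0 by median elsewhere, and CD3E was at a median of 0 in every group. CD68, a marker of macrophages, went the other way, with medians of 2.20 FPKM in A2780, 41.5 in A2780 OlaR, 64.3 in C13* shCON and 11.8 in C13* shCEBPB. The endothelial markers summed to at most 2.39 FPKM in any library. The part of these differences in the results that follow was not tested. In bulk libraries of a cell line, fewer cells with a given RNA and less of it per cell cannot be told apart.

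A2780 stood apart for most of the genes. In 7 of the 10 genes, TMSB4X, TMSB15A, TAGLN, CNN1, CNN3, ACTA2 and TPM2, every A2780 library lay above all 23 libraries of the other groups. This was so for 27.4% of the 12967 genes. TMSB15A and CNN1 reached 1 FPKM only in A2780 libraries, so for them the filter behind the 12967 genes largely set this place. TAGLN2 was the 1 gene with every A2780 library below the rest, as were 17.8% of all genes. In C13* shCEBPB, TAGLN2 lay above all other libraries, as did 14.0% of the 12967 genes, and TAGLN, CNN2 and ACTA2 lay below them, as did 19.5%.

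**Figure D1:**
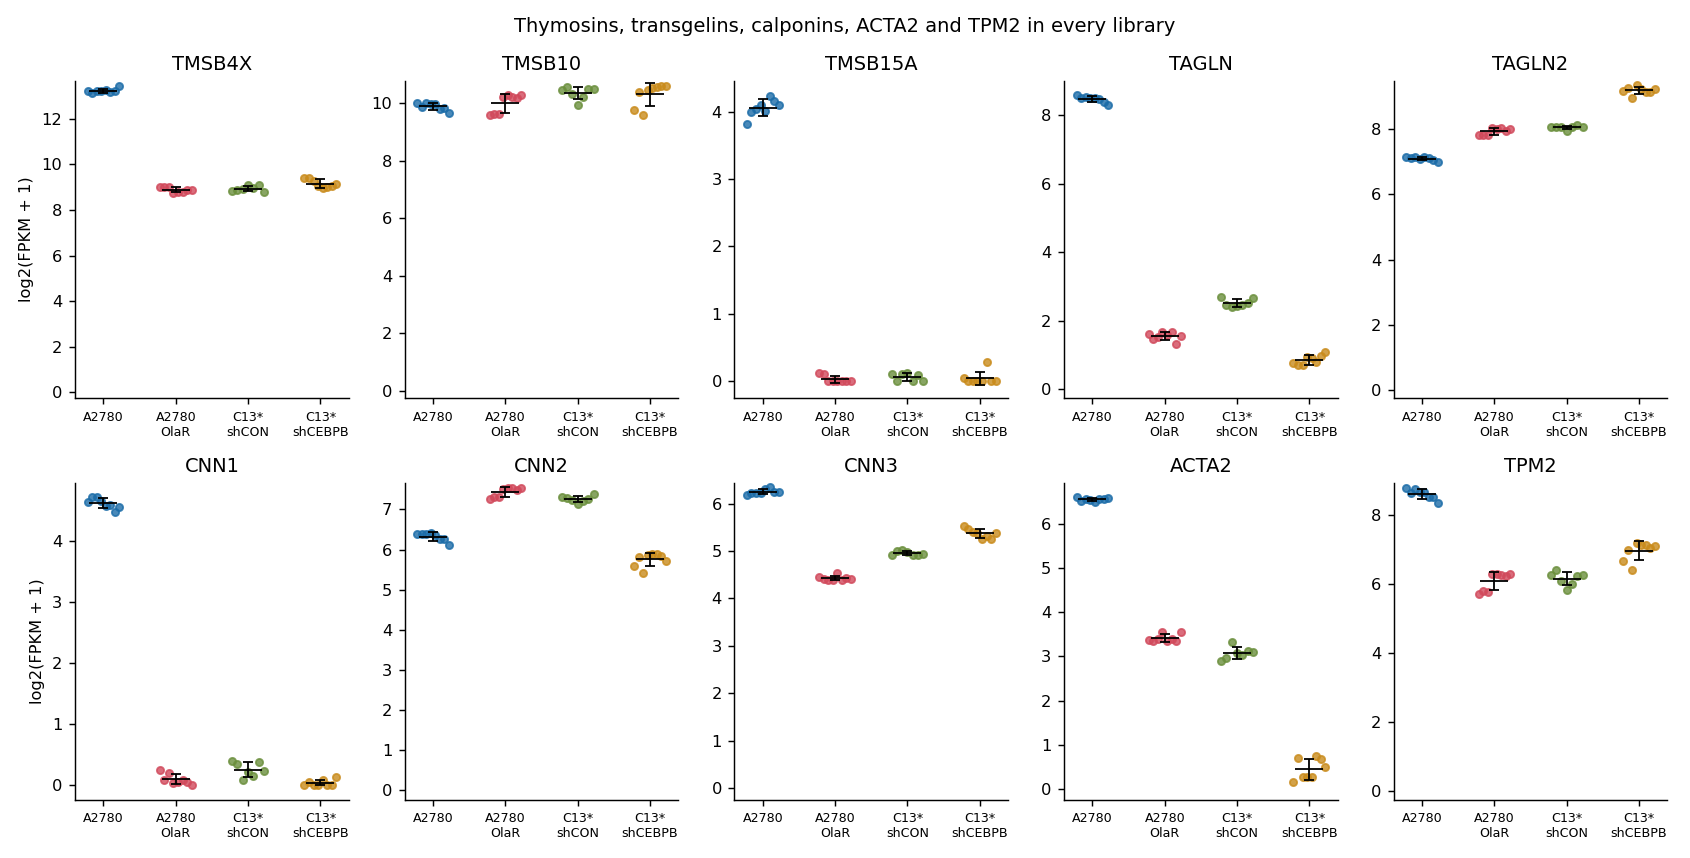
Level of each gene as log2(FPKM + 1) in the 31 libraries (points) of A2780, A2780 OlaR, C13* shCON and C13* shCEBPB, with the mean (long black mark) and SD (bars) of the group; each panel has its own axis range. TAGLN and ACTA2 are highest in A2780 (357 and 93.5 FPKM on average) and lowest in C13* shCEBPB (0.830 and 0.375), while TAGLN2 has means of 136 and 584 FPKM in these groups.

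TMSB4X, which encodes the main actin-sequestering peptide, was highest in A2780 by a wide margin. Its FPKM were 9072, 9444 and 10938 (lowest, median and highest) in A2780, 427, 469 and 518 in A2780 OlaR, 442, 482 and 548 in C13* shCON and 491, 550 and 678 in C13* shCEBPB. The A2780 libraries thus lay far above the others, which overlapped among themselves. TMSB4X alone made up 2.15% to 2.60% of all FPKM in A2780 libraries and 0.0949% to 0.159% in the other libraries. The mean FPKM in A2780 OlaR was 20.3-fold lower than in A2780, a difference of -4.34 in mean log2(FPKM + 1) (SE 0.05). After quantile normalization, which brings the highest genes of all libraries to 1 distribution, the difference was -3.24. In C13* shCEBPB the difference from C13* shCON was 0.22 (SE 0.08), with overlapping libraries. It was 0.49 in libraries numbered 1 to 3, which lay at 612 to 678 FPKM against 449 to 482 without overlap, and 0.05 in libraries 4 to 8.

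TMSB10, a second sequestering peptide, did not follow TMSB4X. Its FPKM were 807, 975 and 1033 in A2780, 766, 1175 and 1270 in A2780 OlaR, 980, 1413 and 1509 in C13* shCON and 778, 1447 and 1574 in C13* shCEBPB. The neighbouring groups in the order of means overlapped at every step. The difference of A2780 OlaR from A2780 was 0.12 (SE 0.12) on the log2(FPKM + 1) scale, but it took opposite signs in libraries numbered 1 to 3 (-0.35) and 4 to 8 (0.40), and was -0.30 after quantile normalization. Within A2780 OlaR, libraries 1 to 3 lay at 766 to 799 FPKM and libraries 4 to 8 at 1164 to 1270, without overlap. The split was not particular to TMSB10. Over the 12967 genes, libraries 1 to 3 had a median absolute log2 distance of 0.142 to 0.148 to the others of their group, against 0.0608 to 0.113 in libraries 4 to 8. The difference of C13* shCEBPB from C13* shCON was -0.04 (SE 0.16), again with opposite signs in libraries 1 to 3 (-0.51) and 4 to 8 (0.27), and 0.18 after quantile normalization. The median ratio of TMSB4X to TMSB10 in a library was 9.56 in A2780 and 0.386, 0.370 and 0.367 in A2780 OlaR, C13* shCON and C13* shCEBPB.

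**Figure D2:**
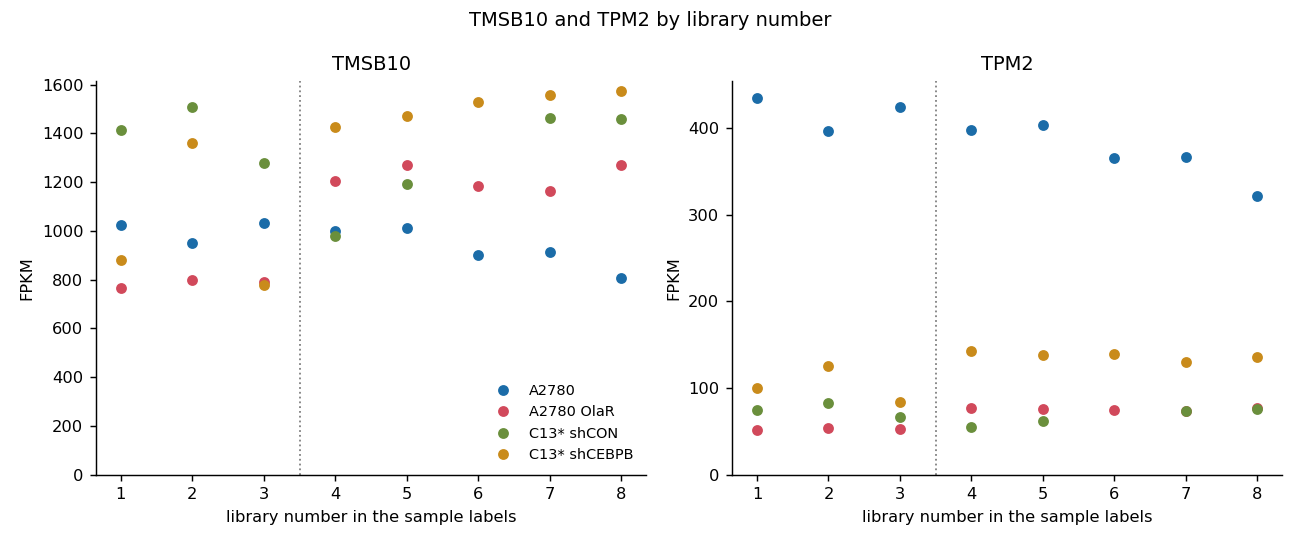
FPKM of TMSB10 (left) and TPM2 (right) against the library number in the sample labels, 1 point per library and 1 colour per group, with a dotted line between numbers 3 and 4. In A2780 OlaR, TMSB10 is at 766 to 799 FPKM in libraries 1 to 3 and at 1164 to 1270 in libraries 4 to 8, and TPM2 is at 51.2 to 54.5 and at 73.4 to 77.2.

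TMSB15A, a thymosin better known from neurons and tumours, was present in A2780 at 13.1, 15.8 and 17.9 FPKM (lowest, median and highest). It was listed at 0 in 6 of the 8 A2780 OlaR libraries, and the other two did not pass 0.0850 FPKM. In C13* shCON the highest library was at 0.0851 FPKM and in C13* shCEBPB at 0.216, where 6 of 8 were listed at 0. No ratio is given against these groups, and the difference of A2780 OlaR from A2780 was -4.03 (SE 0.05) in mean log2(FPKM + 1). TMSB15B, its near copy, was at 0.545, 0.861 and 1.46 FPKM in A2780. It was listed at 0 in every A2780 OlaR and C13* shCEBPB library, and in C13* shCON the highest library was at 0.0625.

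TAGLN, an actin-binding protein of smooth muscle (SM22), had the widest span of the 10 genes in mean log2(FPKM + 1), an order that rests on the added 1. With 0.01 added instead, its difference between A2780 OlaR and A2780 was -7.50, and those of TMSB15A (-9.82) and CNN1 (-8.81) were larger. It lies at chr11:117199370-117207464 on the plus strand. Its FPKM were 314, 361 and 389 in A2780, 4.29, 4.55 and 5.50 in C13* shCON, 1.53, 1.98 and 2.22 in A2780 OlaR and 0.626, 0.815 and 1.15 in C13* shCEBPB. These 4 groups did not overlap at any step. In A2780 OlaR the mean FPKM was 181-fold lower than in A2780, a difference of -6.92 (SE 0.05) in mean log2(FPKM + 1). In C13* shCEBPB it was 5.74-fold lower than in C13* shCON, a difference of -1.66 (SE 0.07), in which the added 1 takes away part of the change of so low a gene. The exons of TAGLN share 2233 bases with PCSK7 on the other strand, and PCSK7 had means of 10.7 FPKM in A2780, 7.90 in A2780 OlaR, 7.30 in C13* shCON and 11.8 in C13* shCEBPB.

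TAGLN2, the transgelin of many non-muscle cells, ran the other way. It lies at chr1:159918107-159925507 on the minus strand. Its FPKM were 126, 137 and 141 in A2780, 224, 252 and 261 in A2780 OlaR, 248, 268 and 279 in C13* shCON and 500, 584 and 656 in C13* shCEBPB. A2780 OlaR and C13* shCON overlapped, and the other steps did not. The mean FPKM was 1.80-fold higher in A2780 OlaR than in A2780 (log2 difference 0.84, SE 0.04) and 2.19-fold higher in C13* shCEBPB than in C13* shCON (1.13, SE 0.05). The median ratio of TAGLN to TAGLN2 FPKM in a library was therefore 2.61 in A2780, where TAGLN was the more abundant, and 0.00822 in A2780 OlaR, 0.0172 in C13* shCON and 0.00138 in C13* shCEBPB.

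CNN1, the calponin of differentiated smooth muscle, was near absent outside A2780. It lies at chr19:11538767-11550323 on the plus strand. In A2780 its FPKM were 21.3, 23.6 and 25.5. The highest libraries of A2780 OlaR, C13* shCON and C13* shCEBPB were at 0.187, 0.311 and 0.0848 FPKM, and 5 of the 8 C13* shCEBPB libraries were listed at 0. The difference of A2780 OlaR from A2780 was -4.54 (SE 0.04) in mean log2(FPKM + 1).

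CNN2, a calponin of many cell types, was the 1 gene that was higher in A2780 OlaR and lower in C13* shCEBPB than in its control, with no overlap in either comparison. It lies at chr19:1026586-1039068 on the plus strand. Its FPKM were 67.9, 81.8 and 84.3 in A2780, 152, 181 and 186 in A2780 OlaR, 139, 152 and 165 in C13* shCON and 41.8, 55.7 and 58.6 in C13* shCEBPB. The mean FPKM was 2.18-fold higher in A2780 OlaR than in A2780 (log2 difference 1.12, SE 0.06). In C13* shCEBPB it was 2.85-fold lower than in C13* shCON (-1.50, SE 0.07). A2780 OlaR and C13* shCON overlapped.

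CNN3, the acidic calponin, differed the other way from CNN2 in both comparisons. It lies at chr1:94896949-94927223 on the minus strand. Its FPKM were 71.9, 74.6 and 80.3 in A2780, 19.9, 20.4 and 22.1 in A2780 OlaR, 29.1, 29.6 and 31.5 in C13* shCON and 37.0, 40.7 and 45.4 in C13* shCEBPB, with no overlap between any groups. The mean FPKM was 3.67-fold lower in A2780 OlaR than in A2780 (log2 difference -1.83, SE 0.02) and 1.35-fold higher in C13* shCEBPB than in C13* shCON (0.42, SE 0.04). The median ratio of CNN3 to CNN2 in a library was 0.934 in A2780, 0.118 in A2780 OlaR, 0.199 in C13* shCON and 0.748 in C13* shCEBPB.

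ACTA2, the alpha actin of smooth muscle and of myofibroblast stress fibres, differed between all 4 groups with no overlap. It lies at chr10:88935074-88991339 on the minus strand. Its FPKM were 89.1, 93.9 and 97.1 in A2780, 9.17, 9.38 and 10.8 in A2780 OlaR, 6.45, 7.39 and 8.96 in C13* shCON and 0.105, 0.303 and 0.667 in C13* shCEBPB. The mean FPKM was 9.64-fold lower in A2780 OlaR than in A2780 (log2 difference -3.15, SE 0.04) and 19.9-fold lower in C13* shCEBPB than in C13* shCON (-2.63, SE 0.10). The last difference was -4.14 with 0.1 added in place of 1 and -4.52 with 0.01 added, as the FPKM of C13* shCEBPB were all under 1. Exons of ACTA2 share 387 bases with FAS and 1638 with ACTA2-AS1 on the other strand. FAS had means of 6.08 FPKM in A2780, 6.75 in A2780 OlaR, 8.22 in C13* shCON and 2.95 in C13* shCEBPB. Against the cytoplasmic actin ACTB, ACTA2 was a small part in every group, with a median ratio of 0.0265 in A2780, 0.00386 in A2780 OlaR, 0.00307 in C13* shCON and 0.000132 in C13* shCEBPB.

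TPM2, the beta tropomyosin of muscle and stress fibres, lies at chr9:35681992-35690056 on the minus strand. Its FPKM were 322, 397 and 435 in A2780, 51.2, 74.2 and 77.2 in A2780 OlaR, 55.4, 73.3 and 82.5 in C13* shCON and 83.5, 133 and 143 in C13* shCEBPB. Only A2780 OlaR and C13* shCON overlapped among neighbours. The mean FPKM was 5.79-fold lower in A2780 OlaR than in A2780 (log2 difference -2.53, SE 0.11) and 1.77-fold higher in C13* shCEBPB than in C13* shCON (0.81, SE 0.12). The second difference was 0.44 in libraries numbered 1 to 3 and 1.04 in libraries 4 to 8.

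In A2780 OlaR against A2780, all 10 genes passed the filter of at least 1 FPKM in 8 libraries, and 9 had no overlap between the groups, 2 higher and 7 lower. Of the 12458 genes tested, 74.1% had no overlap, 32.8% higher and 41.3% lower. The median difference of the 10 genes was -2.84 in mean log2(FPKM + 1), beside -0.12 for all genes tested. In C13* shCEBPB against C13* shCON, 8 of 10 passed the filter of at least 1 FPKM in 7 libraries, as TMSB15A and CNN1 did not. Of the 8, 6 had no overlap, 3 higher and 3 lower. The median difference of all 10 genes was -0.03, beside -0.07 for all genes tested. Of the 12006 genes tested, 66.0% had no overlap, 29.3% higher and 36.7% lower. In A2780 OlaR against A2780, TMSB15A and CNN1 passed the filter only through the A2780 libraries. In C13* shCEBPB against C13* shCON, ACTA2 passed only through the C13* shCON libraries. That these genes were lower without overlap was thus fixed by the filter, and the medians hold them too. These counts describe genes picked on the same values.

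**Figure D3:**
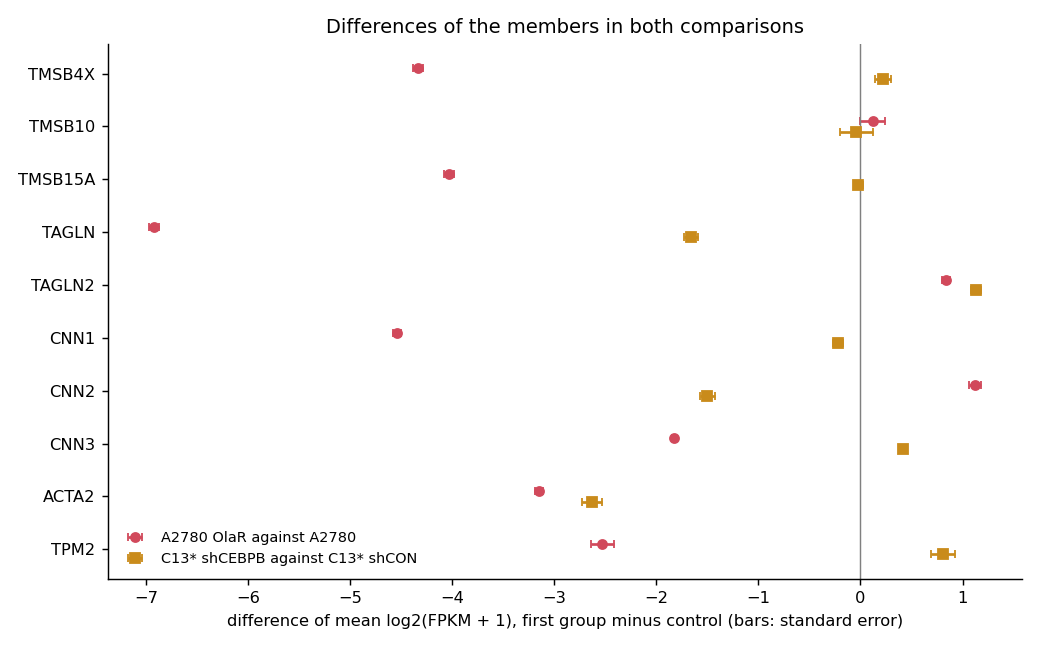
Difference of the mean log2(FPKM + 1) of the 10 genes in A2780 OlaR minus A2780 (circles) and C13* shCEBPB minus C13* shCON (squares), with the standard error as bars; points left of 0 are lower than their control. TAGLN (-6.92 and -1.66) and ACTA2 (-3.15 and -2.63) lie left and TAGLN2 (0.84 and 1.13) right in both comparisons, and CNN2, CNN3 and TPM2 lie on opposite sides.

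By the mean absolute difference between group means of log2(FPKM + 1), each centred on its own mean over the 4 groups, the genes most like the members were sought among 12957 genes. For TAGLN the nearest were HAPLN3 (0.285), MAP2 (0.376) and MMP3 (0.390), the largest distances among the 7 genes with a span of at least 2. The distances are not scaled by span, which was widest for TAGLN. For ACTA2 they were PAX9 (0.0551), HOXB2 (0.104) and PDGFC (0.137), and PAX9 had means of 133, 15.4, 12.8 and 1.09 FPKM in A2780, A2780 OlaR, C13* shCON and C13* shCEBPB. For TMSB4X they were HBQ1 (0.0389), COL26A1 (0.0472) and ZNF711 (0.0688), and for TMSB15A ZC4H2 (0.0151), ROBO2 (0.0344) and COLGALT2 (0.0594). For CNN1 they were CACNG7 (0.0255), NEFH (0.0673) and NXPH3 (0.0692). For TAGLN2 they were CPSF6 (0.0296), RYR2 (0.0312) and HPCAL1 (0.0554), and for TPM2 they included MLXIPL (0.0399) and TMEM150A (0.0522). HBQ1 had means of 21.5 FPKM in A2780 and 0.0370 in A2780 OlaR, where TMSB4X had 9590 and 473. RYR2 had means of 0.101 FPKM in A2780 and 3.45 in C13* shCEBPB, where TAGLN2 had 136 and 584. The added 1 shrinks the change of low genes, so such likenesses hold on this scale and not in fold. With 4 group means a likeness of this kind is loose and describes the pattern only.

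The rest of the actin machinery was read from 6 lists of 83 other genes, which were fitted with limma within the table of all genes. The test on log2(FPKM + 1) was two-sided, p-values were adjusted over all genes by Benjamini-Hochberg, and a gene was called at an adjusted p under 0.05. In A2780 OlaR against A2780, 65 of 73 list genes tested were called, 30 higher and 35 lower, or 89.0% beside 89.8% of all genes tested (40.1% higher, 49.7% lower). In C13* shCEBPB against C13* shCON, 59 of 70 were called, 30 higher and 29 lower, or 84.3% beside 84.7% of all genes (38.9% higher, 45.7% lower). These shares were near those of all genes, so that a call alone says little of actin genes. Of the list genes named below, ACTG2, LMOD1 and SYNPO2 passed the filter only through the A2780 libraries. ACTC1 passed only through C13* shCEBPB and LCP1 only through C13* shCON. Their direction was thus fixed by the filter, and their adjusted p-values add no support to it. The list counts and medians hold such genes too.

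**Figure D4:**
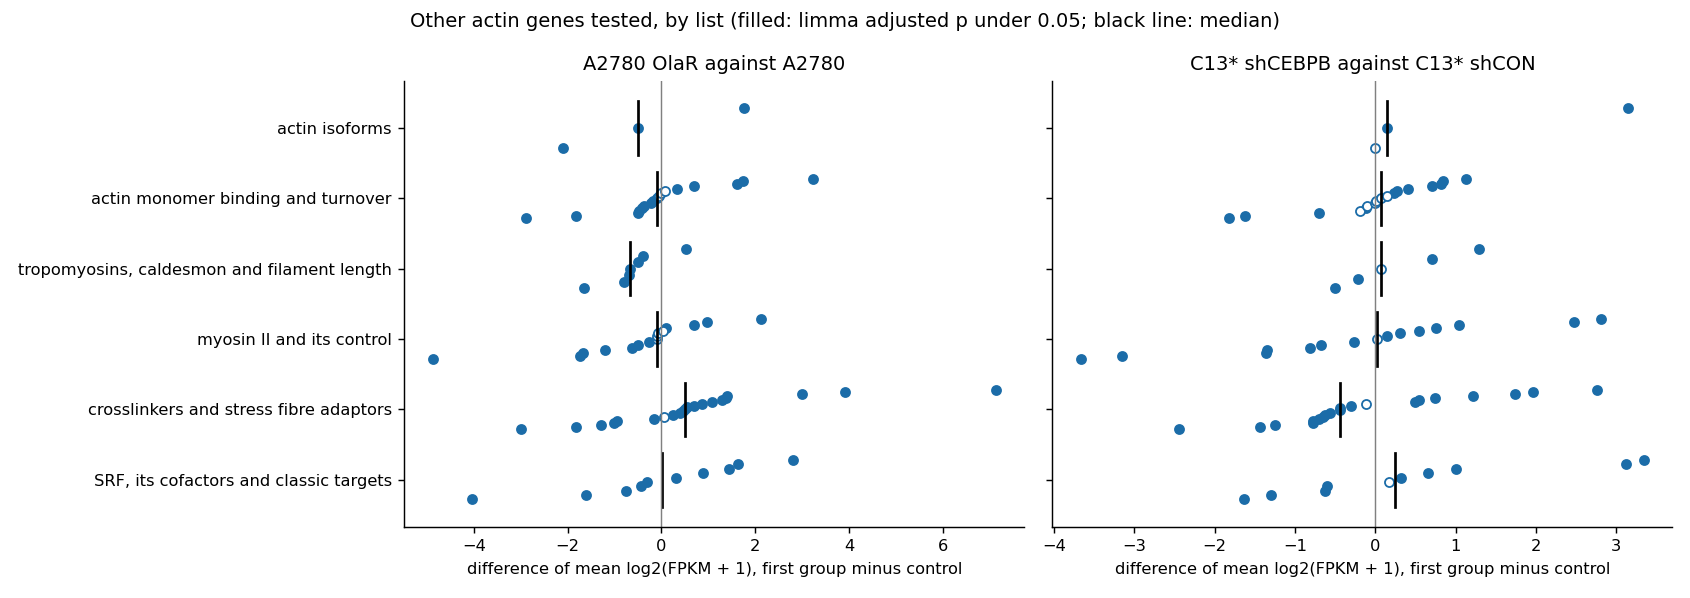
Difference of the mean log2(FPKM + 1) of the list genes tested, 1 point per gene, in A2780 OlaR minus A2780 (left) and C13* shCEBPB minus C13* shCON (right), by list; filled points were called by limma (adjusted p under 0.05), open points were not, and the black line is the list median. The medians of tropomyosins, caldesmon and filament length (-0.68) and of crosslinkers (0.50) lie farthest from 0 among the larger lists on the left, and crosslinkers lie at -0.44 on the right. The median of all genes tested was -0.12 on the left and -0.07 on the right.

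Among the actin isoforms, A2780 OlaR carried less ACTB and more ACTG1, the pair of cytoplasmic actins. ACTB was at 2484 ± 112 FPKM (SD, n = 8) against 3543 ± 32.7 in A2780 (log2 difference -0.51, limma adjusted p = 1.73e-12), and ACTG1 at 1370 ± 35.4 against 407 ± 12.7 (1.75, limma adjusted p = 1.24e-21). ACTG2, the smooth muscle gamma actin, fell from 3.98 ± 0.559 to 0.161 ± 0.0957 FPKM (-2.10, limma adjusted p = 1.17e-16). In C13* shCEBPB, ACTC1, the cardiac alpha actin, was at 5.93 to 11.1 FPKM, while no C13* shCON library passed 0.0237 (3.15, limma adjusted p = 5.32e-15). ACTB was slightly higher there (0.14, limma adjusted p = 0.0386), with overlapping libraries, and ACTG1 was at 1328 ± 48.5 FPKM in C13* shCEBPB and 1330 ± 45.7 in C13* shCON (limma adjusted p = 0.973).

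Of 17 genes of actin monomer binding and turnover, 14 were called in A2780 OlaR, 5 higher and 9 lower, and 11 in C13* shCEBPB, 7 higher and 4 lower. Of all genes tested, 89.8% and 84.7% were called. CAPG, which caps filament ends, rose from 6.36 ± 0.457 to 69.4 ± 11.3 FPKM in A2780 OlaR (3.24, limma adjusted p = 3.66e-18). CFL2, the muscle cofilin that severs filaments, fell from 122 ± 13.1 to 15.7 ± 2.38 FPKM (-2.89, limma adjusted p = 1.43e-17). In C13* shCEBPB, the profilin PFN2 rose from 80.5 ± 3.64 to 178 ± 15.9 FPKM (1.13, limma adjusted p = 5.96e-13), and SSH1, a phosphatase that switches cofilin on, fell from 63.4 ± 2.32 to 17.2 ± 0.835 (-1.82, limma adjusted p = 5.50e-18).

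The other tropomyosins, caldesmon and filament length genes were mostly lower in A2780 OlaR. Here 7 of 7 tested were called, 1 higher and 6 lower, beside 89.8% of all genes called (40.1% higher, 49.7% lower). The median was -0.68 beside -0.12 for all genes, and it holds LMOD1, whose direction the filter fixed. TPM1 was 1.73-fold lower, TPM3 1.41-fold and TPM4 1.60-fold by mean FPKM, against 5.79-fold for TPM2. LMOD1, a nucleator of muscle filaments, fell from 2.54 ± 0.266 to 0.126 ± 0.0345 FPKM (-1.65, limma adjusted p = 8.51e-18), and TMOD3, which caps pointed ends, rose (0.53, limma adjusted p = 8.76e-07). In C13* shCEBPB, 4 of 5 were called, 2 in each direction, beside 84.7% of all genes called. TPM3 rose (0.71, limma adjusted p = 2.69e-08), whereas TPM1 fell (-0.50, limma adjusted p = 1.66e-09) and TPM4 fell (-0.21, limma adjusted p = 3.08e-05). CALD1, caldesmon, rose from 23.4 ± 0.714 to 58.8 ± 6.31 FPKM (1.29, limma adjusted p = 5.28e-13).

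Myosin II and its control held 11 called of 15 in A2780 OlaR, 4 higher and 7 lower, and 14 of 15 in C13* shCEBPB, 7 in each direction. The shares of all genes called were 89.8% and 84.7%. MYL9, the light chain of smooth muscle and non-muscle myosin, fell from 629 ± 42.7 FPKM in A2780 to 20.6 ± 3.11 in A2780 OlaR (-4.88, limma adjusted p = 1.57e-21). In C13* shCEBPB it rose from 24.8 ± 2.96 to 53.1 ± 11.5 (1.04, limma adjusted p = 3.22e-07). MYH14, a non-muscle heavy chain, rose in A2780 OlaR (2.13, limma adjusted p = 3.03e-14) and fell in C13* shCEBPB (-3.15, limma adjusted p = 1.84e-16). MYH10, another non-muscle heavy chain, fell from 24.0 ± 0.987 to 0.969 ± 0.138 FPKM in C13* shCEBPB (-3.67, limma adjusted p = 6.61e-21), where RHOB, a small GTPase, rose from 11.1 ± 0.786 to 85.5 ± 17.2 (2.81, limma adjusted p = 2.50e-14).

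Of the crosslinkers and stress fibre adaptors, 20 of 21 were called in A2780 OlaR, 14 higher and 6 lower (median 0.50). Of all genes, 89.8% were called there, 40.1% higher and 49.7% lower (median -0.12). In C13* shCEBPB, 19 of 20 were called, 7 higher and 12 lower (median -0.44). Of all genes, 84.7% were called there, 38.9% higher and 45.7% lower (median -0.07). PDLIM1, an adaptor on stress fibres, rose from 0.813 ± 0.392 to 250 ± 7.10 FPKM in A2780 OlaR (7.14, limma adjusted p = 4.32e-23) and fell from 246 ± 13.2 to 90.7 ± 6.91 in C13* shCEBPB (-1.43, limma adjusted p = 9.69e-15). SYNPO2, a muscle adaptor, fell in A2780 OlaR from 9.53 ± 0.311 to 0.318 ± 0.0412 FPKM (limma adjusted p = 3.81e-24). CSRP1, a LIM protein of smooth muscle, rose in C13* shCEBPB from 23.9 ± 1.71 to 168 ± 10.2 FPKM (2.76, limma adjusted p = 4.21e-19). LCP1, the leukocyte plastin that bundles actin, was at 4.47 ± 0.452 FPKM in C13* shCON (SD, n = 7) and did not pass 0.0299 in C13* shCEBPB (-2.44, limma adjusted p = 8.82e-19).

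SRF and its cofactors were read as RNA levels only, and their part in the differences of the 10 genes was not tested. SRF fell from 30.2 ± 2.80 to 22.3 ± 3.20 FPKM in A2780 OlaR (-0.43, limma adjusted p = 3.77e-05) and was at 24.5 ± 3.69 in C13* shCEBPB and 21.5 ± 1.86 in C13* shCON (0.17, limma adjusted p = 0.0727). The cofactor MRTFA, listed as MKL1, fell in A2780 OlaR (-0.30, limma adjusted p = 8.78e-05) and in C13* shCEBPB (-0.60, limma adjusted p = 3.55e-07). MRTFB, listed as MKL2, rose in A2780 OlaR (0.88, limma adjusted p = 1.71e-10) and fell in C13* shCEBPB (-1.30, limma adjusted p = 7.69e-11). MYOCD, myocardin, did not pass 0.0737 FPKM in any library. Of the 10 genes of this list tested, 10 were called in A2780 OlaR, 5 in each direction, and 9 in C13* shCEBPB, 5 higher and 4 lower. The shares of all genes called were 89.8% and 84.7%. CTGF, a secreted matrix protein of this list, fell from 173 ± 3.55 to 9.63 ± 0.574 FPKM in A2780 OlaR (-4.04, limma adjusted p = 1.22e-25). It rose from 5.07 ± 0.352 to 52.4 ± 8.14 in C13* shCEBPB (3.12, limma adjusted p = 1.03e-16). The immediate early gene EGR1 rose in A2780 OlaR (2.80, limma adjusted p = 8.07e-21), and FOS rose in C13* shCEBPB from 12.0 ± 0.819 to 132 ± 11.8 FPKM (3.35, limma adjusted p = 2.99e-19). SMTN, smoothelin, fell in C13* shCEBPB from 24.7 ± 1.06 to 7.33 ± 1.26 FPKM (-1.64, limma adjusted p = 1.56e-12).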

How the data were processed

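The authors sequenced mRNA, mapped reads to hg38 with TopHat and tested counts with edgeR. The values the authors deposited were FPKM in 1 table, and the tool and annotation behind the FPKM are not given in the sources used here. Raw counts were not used here. Groups were taken from the sample labels. Of 19225 entries, 4 with 2 repeated symbols were left out. A gene entered the test if the number of its libraries at 1 FPKM or more reached the size of the smaller group. A gene under 1 FPKM throughout 1 group could thus enter only through the other group. The fit used R 4.3.3 and limma 3.58.1 (eBayes with a trend) on log2(FPKM + 1), a pseudocount of 1 that understates the change of low genes. limma stood in for the count test since the values are FPKM. The step was tested on simulated data. Tables and plots were made with Python 3.11.15 (numpy 2.4.6, pandas 2.3.3, matplotlib 3.10.9). Positions are from GENCODE 44 on hg38, which may differ from the authors' annotation.

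The members and lists were chosen with earlier results of these data known. Named genes are the members, the largest rise and fall per list and comparison among called genes without overlap, SRF, its cofactors, ACTB, ACTG1, TMSB15B and CEBPB, and the 3 nearest genes of each member with a span of 2. A gene that this rule names is not reported here. Some list genes named beside these (TPM1, TPM3, TPM4, and a gene in the comparison where it was not the largest) were chosen after their values were seen. Alternatives were pseudocounts of 0.1 and 0.01, no filter and a filter at 5 FPKM, quantile normalization, a common sum of FPKM, a joint fit of the 4 groups, replicate and library number blocks, library ranges, leaving out a library, an adjusted p under 0.01 and a fold of at least 2.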

Additional observations from a re-analysis of the deposited data

Results flagged for a closer look

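In 3 of 40 sets, each 1 gene in the libraries of 1 group, the highest library lay far from the others, where chance gives about 1 in 20. TMSB4X was at 10938 FPKM in A2780 replicate 8 and at 9072 to 9681 in the other A2780 libraries. This library also lay farthest from the other libraries of its group over all genes, with a median absolute log2 distance of 0.120, and in TMSB4X the A2780 group stayed far above the others either way. TMSB15A was at 0.216 FPKM in C13* shCEBPB replicate 6 and at 0 to 0.0364 in the others of that group. CNN3 was at 22.1 FPKM in A2780 OlaR replicate 5 and at 19.9 to 20.9 in the others.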

How the results depend on the processing

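Requiring a fold of at least 2 as well left 3539 of 10166 genes called and 23 of 59 list genes in C13* shCEBPB, and 4446 of 11190 genes and 29 of 65 list genes in A2780 OlaR. The other counts stayed within 1.5 times under the alternatives run, including that without C13* shCON replicate 1 and that without A2780 replicate 8, which was chosen after seeing the data. With the replicate number as a block, 9885 and 10960 genes and 59 and 63 list genes were called. The numbers did not pair the libraries, since libraries of the same number deviated from their group means with an average r of -0.138 (7 pairs) and -0.228 (8 pairs), and no member changed sign under the block. Of 180 member differences recomputed, 140 moved by less than the replicate spread and 40 by more, 17 of these under another pseudocount. TMSB10 changed sign between library ranges and under quantile normalization. The median of all genes was -0.12 in A2780 OlaR, -0.18 at a common sum and -0.03 under quantile normalization. Depth limits CNN1, TMSB15A, TAGLN and ACTA2 where they are near or under 1 FPKM.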
